A study of Homo sapiens with 4 samples.

Results

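The list described here holds 40 genes of glycolysis and of the cellular response to low oxygen, all found by symbol among the 58174 genes of the deposited table. Of these, 25 act in glucose uptake, glycolysis, lactate handling and the entry of pyruvate into mitochondria. The other 15 are genes of oxygen sensing (HIF1A, EGLN1 and EGLN3) and genes known to be induced by hypoxia. RNA was sequenced from 2 human lung cancer cell lines 48 h after transfection, in 4 groups of 1 library each. The groups were HCC827 with an siRNA against CDH3 (siCDH3), HCC827 with a control siRNA (siCTR), H1299 with siCDH3 and H1299 with siCTR. HCC827 came from a lung adenocarcinoma and carries an activating EGFR deletion. H1299 came from a lymph node metastasis of a non-small cell lung carcinoma. CDH3 encodes P-cadherin, an adhesion molecule of epithelial junctions. Each library is 1 culture of 1 line, and nothing within a line was repeated.

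Glycolysis splits glucose into pyruvate in the cytosol. Lactate dehydrogenase then turns pyruvate into lactate for export, or pyruvate dehydrogenase passes its carbon to the mitochondria. Many cancer cells run glycolysis at a high rate even with oxygen present. HIF1A, the regulated subunit of hypoxia-inducible factor, is marked for destruction by prolyl hydroxylases (EGLN1, EGLN3) when oxygen is present. In hypoxia it pairs with ARNT and binds short DNA cores, ACGTG or GCGTG, near genes of glucose transport, glycolysis, angiogenesis and mitochondrial turnover.

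The DNA around the start sites of the members is shown first, because the core bound by hypoxia-inducible factor is the feature that many of these genes are known to share. The 8 stretches below are those with the ACGTG core before the start site for the 6 such genes that were lower in HCC827 by most, and for GAPDH and LDHA, whose values are described at length. Each is printed on the gene's own strand, 5′ to 3′, with the core in capitals. CACGT is the same core read on the opposite strand.
GPI: acactgcctgtaACGTGgaaggtgttcga
BNIP3: cgcacgcgccgcACGTGccacacgcaccc
ALDOA: ccttcccctccaCACGTcaacgattctat
ANKRD37: cagtgtttgtgtACGTGcggccgtggcgg
P4HA1: tgtgatcgagctCACGTagcgagggctgc
ENO2: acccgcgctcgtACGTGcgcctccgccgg
GAPDH: ctctgcggggtcACGTGtcgcagaggagc
LDHA: cgtgggttcccgCACGTccgccggccccc

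These sequences are from RefSeq on build GRCh38.p14. They lie at chr19:34364818-34364846 (plus strand) for GPI, chr10:131982040-131982068 (minus strand) for BNIP3, chr16:30064089-30064117 (plus strand) for ALDOA and chr4:185396686-185396714 (plus strand) for ANKRD37. P4HA1 is at chr10:73096936-73096964 (minus strand), ENO2 at chr12:6914450-6914478, GAPDH at chr12:6535172-6535200 and LDHA at chr11:18394478-18394506 (all plus strand). Promoter windows of 300 bases, 250 before and 50 after the start, were matched by symbol for 35 of the 40 members. No window was matched for SLC2A3, SLC16A1, VEGFA, NDRG1 and BNIP3L. ACGTG on either strand was in 15 of these 35 windows (42.9%), against 21.6% of all 27305 windows of the same length. Among the 15 were also ALDOC, which was higher in HCC827, and PDK3, whose difference between the lines did not pass the threshold used below. Either core, ACGTG or GCGTG, was in 26 of 35 (74.3%), against 48.4% of all. ACGTG is also part of CACGTG, the E-box bound by MYC and other factors, which 5 of the 35 windows held (14.3%, against 7.43% of all). The cores printed for BNIP3 and GAPDH follow a c and are thus part of CACGTG. A match of letters is not a bound site, and base composition was not compared.

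Some facts of the whole data set bear on all values. Values are TPM, transcript abundances scaled for transcript length and to a fixed sum per library, so the read depth is unknown and no counting interval can be given. The columns summed to between 999859 and 999943. CDH3, the targeted gene, had 78.8 TPM in HCC827 siCDH3 and 173 in HCC827 siCTR, against 0.169 in H1299 siCDH3 and 1.21 in H1299 siCTR. In H1299 there was therefore little CDH3 RNA before silencing. Epithelial markers reached 5 TPM for 6 of 6 genes in each HCC827 library and for 3 of 6 in each H1299 library, and of 4 lung markers for 2 in HCC827 and 0 in H1299. Of 4 mesenchymal markers, 2 reached it in HCC827 and 4 in H1299, and of 4 fibroblast markers 1 in HCC827 and 0 in H1299. None of 5 hematopoietic or 3 endothelial markers reached 5 TPM in any library. Mitochondrially encoded protein genes took 26.4% of TPM in HCC827 siCDH3 and 27.6% in HCC827 siCTR, against 12.8% in H1299 siCDH3 and 10.1% in H1299 siCTR.

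The levels of the members set the lines far apart. Summed over the 25 glycolysis genes, TPM was 10526 in HCC827 siCDH3 and 10383 in HCC827 siCTR, against 50411 in H1299 siCDH3 and 52523 in H1299 siCTR. That was 1.05% and 1.04% of each HCC827 library, siCDH3 and siCTR, against 5.04% of H1299 siCDH3 and 5.25% of H1299 siCTR. With mitochondrially encoded protein genes taken out of the total, the shares were 1.43% in both HCC827 libraries, against 5.78% in H1299 siCDH3 and 5.84% in H1299 siCTR. The 2 libraries of a line were close to each other on this measure, and those of the other line lay far away. A lower level in bulk RNA may be fewer cells with the transcript or less of it per cell, and these cannot be told apart.

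GAPDH, the enzyme that oxidises glyceraldehyde phosphate, was the most abundant transcript of all genes in both H1299 libraries and ranked 22 in both HCC827 libraries. It had 5116 TPM in HCC827 siCDH3 and 5133 in HCC827 siCTR, against 29414 in H1299 siCDH3 and 29715 in H1299 siCTR. It supplied 48.6% of the glycolysis sum in HCC827 siCDH3 and 49.4% in HCC827 siCTR, against 58.3% in H1299 siCDH3 and 56.6% in H1299 siCTR. Without it the glycolysis genes took 0.541% of HCC827 siCDH3 and 0.525% of HCC827 siCTR, against 2.10% of H1299 siCDH3 and 2.28% of H1299 siCTR, so the gap did not rest on GAPDH. In HCC827 siCTR the next in level were ENO1, TPI1, LDHB and PKM, at 1245, 857, 762 and 555 TPM. In H1299 siCTR they were ENO1, ALDOA, GPI and PKM, at 5057, 3497, 3326 and 2444 TPM.

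**Figure D1:**
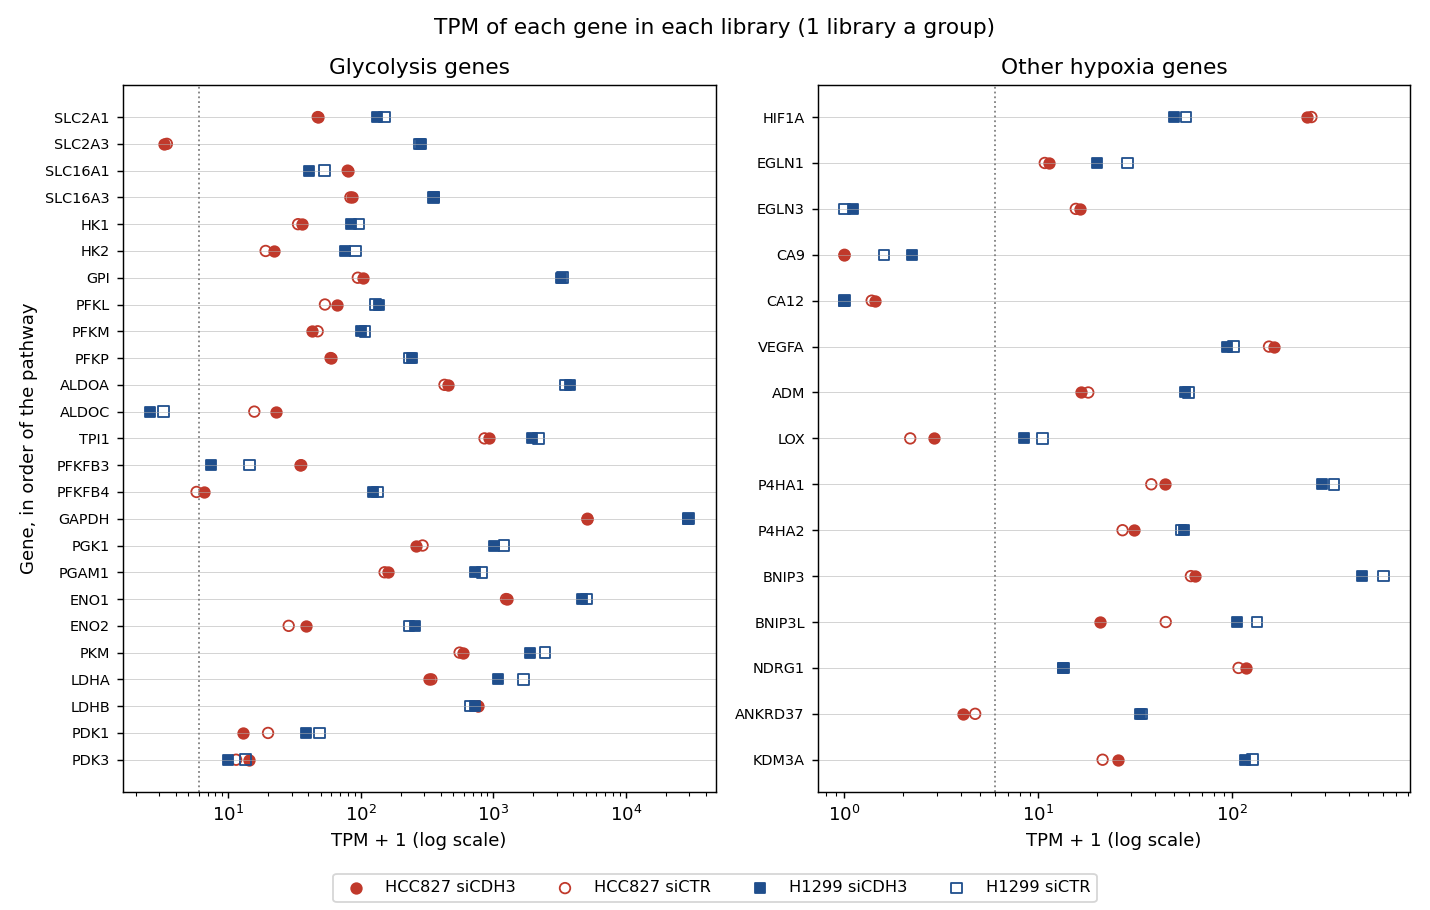
TPM + 1 on a log axis (x) for each of the 25 glycolysis genes (left) and the 15 other hypoxia genes (right), one row a gene. Red circles are HCC827 and blue squares H1299, filled for siCDH3 and open for siCTR, and the dotted line marks 5 TPM. Symbols of 1 line lie close together for most genes, and for most genes both H1299 symbols lie to the right of both HCC827 symbols.

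To compare the lines, limma was fitted to log2(TPM + 1) of 12941 genes with terms for line and siRNA. Differences below are its line term, HCC827 minus H1299, on the log2(TPM + 1) scale, with n = 2 libraries per line. The p-values measure the spread between these 4 libraries, which may be technical, and 1 residual degree of freedom per gene was left before limma shared the spread across genes. Of the 25 glycolysis genes, 20 (80.0%) were lower in HCC827 at a Benjamini-Hochberg adjusted p under 0.05, 3 were higher and 2 did not pass. Over all genes 41.3% were called lower and 21.5% higher. The median difference was -1.96 for the glycolysis genes and -0.31 for all genes. With TPM taken over nuclear protein-coding genes other than ribosomal protein genes, the median of all genes moved to 0.12, and 26.7% of genes were lower and 34.3% higher. On that scale the glycolysis median was -1.55, with 20 genes lower and 4 higher. Each of the 38 members kept its sign in every fit with both terms that it entered, 9 for most and 8 for PDK3, EGLN3 and LOX, which were under the strictest filter. Leaving out 1 library lowered the number of calls over all genes too, most when it was an HCC827 library. With either HCC827 library left out, 1 glycolysis gene, ALDOC, was still called higher, against 3 with all libraries, and members called higher in all numbered 4, against 7. PFKFB3, SLC16A1 and VEGFA lost their call there (limma adjusted p between 0.0546 and 0.118), with differences of 1.76 to 1.78 for PFKFB3, 0.77 to 0.78 for SLC16A1 and 0.66 to 0.74 for VEGFA. Of the members called lower, EGLN1 and LDHA lost their call without either HCC827 library, BNIP3L without either H1299 library, and PDK1 without HCC827 siCDH3 or without H1299 siCTR (limma adjusted p between 0.0504 and 0.115).

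The 4 transporters of the list did not all differ in 1 direction. SLC2A3, the high-affinity glucose transporter GLUT3, showed the lowest difference of the list. It had 2.27 TPM in HCC827 siCDH3 and 2.44 in HCC827 siCTR, against 284 in H1299 siCDH3 and 276 in H1299 siCTR. Its difference was -6.39 ± 0.15 (SE, n = 2 per line, limma adjusted p = 5.89e-05). SLC2A1, the widely expressed glucose transporter GLUT1, had 46.2 TPM in HCC827 siCDH3 and 46.3 in HCC827 siCTR, against 132 in H1299 siCDH3 and 150.4 in H1299 siCTR, a difference of -1.58. SLC16A3, the lactate exporter MCT4, had 85.2 TPM in HCC827 siCDH3 and 82.4 in HCC827 siCTR, against 356 in H1299 siCDH3 and 354 in H1299 siCTR, a difference of -2.07. SLC16A1, the lactate and pyruvate transporter MCT1, went the other way, at 79.1 TPM in HCC827 siCDH3 and 78.6 in HCC827 siCTR, against 39.9 in H1299 siCDH3 and 52.4 in H1299 siCTR. Its difference of 0.77 ± 0.18 (SE, n = 2 per line, limma adjusted p = 0.0161) was no longer called without a filter on TPM (adjusted p = 0.0567).

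Of the 9 members that encode enzymes from hexokinase to triose phosphate isomerase, 8 were lower in HCC827, and ALDOC was higher. Outside the 40, and named after their values were seen, the hexokinase gene HKDC1 and the ADP-dependent glucokinase gene ADPGK were also higher. HKDC1 had 30.5 TPM in HCC827 siCDH3 and 30.6 in HCC827 siCTR, against 0.0254 in H1299 siCDH3, and was listed at 0 in H1299 siCTR. The limma differences were 4.96 ± 0.15 for HKDC1 and 1.03 ± 0.15 for ADPGK (SE, n = 2 per line, adjusted p = 6.93e-05 and 0.00405). GPI, which converts glucose phosphate to fructose phosphate, had 102 TPM in HCC827 siCDH3 and 93.9 in HCC827 siCTR, against 3254 in H1299 siCDH3 and 3326 in H1299 siCTR. That was 31.8-fold lower in HCC827 with siCDH3 and 35.4-fold lower with siCTR, a limma difference of -5.05 ± 0.15 (SE, n = 2 per line, adjusted p = 7.04e-05). The hexokinases HK1 and HK2, which trap glucose as its phosphate, differed by -1.37 and -2.02. The phosphofructokinase subunits, which catalyse the committed step, differed by -1.15 for PFKL, -1.20 for PFKM and -2.0 for PFKP. The aldolase gene ALDOA differed by -3.05 and TPI1 by -1.22. ALDOC, the aldolase best known from brain, had 21.9 TPM in HCC827 siCDH3 and 14.7 in HCC827 siCTR, against 1.55 in H1299 siCDH3 and 2.26 in H1299 siCTR, a limma difference of 2.72 ± 0.26 (SE, n = 2 per line, adjusted p = 0.000949).

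The bifunctional regulators that set the level of an activator of phosphofructokinase split between the lines. PFKFB4 had 5.55 TPM in HCC827 siCDH3 and 4.76 in HCC827 siCTR, against 122 in H1299 siCDH3 and 133 in H1299 siCTR. PFKFB3 had 34.02 TPM in HCC827 siCDH3 and 34.5 in HCC827 siCTR, against 6.38 in H1299 siCDH3 and 13.5 in H1299 siCTR. The differences were -4.38 ± 0.17 for PFKFB4 and 1.77 ± 0.27 for PFKFB3 (SE, n = 2 per line, limma adjusted p = 8.93e-05 and 0.00439).

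All 6 genes of the later, ATP-yielding steps were lower in HCC827. GAPDH differed by -2.53 ± 0.15 (SE, n = 2 per line, limma adjusted p = 0.000235). PGK1 and PKM, the kinases that make ATP, differed by -2.0 and -1.90, and the mutase gene PGAM1 by -2.30. The enolase gene ENO1 differed by -1.96 and ENO2, the enolase of neurons and neuroendocrine cells, by -2.87.

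Lactate dehydrogenase genes differed unequally. LDHA, the form that favours lactate, had 325 TPM in HCC827 siCDH3 and 340 in HCC827 siCTR, against 1084 in H1299 siCDH3 and 1683 in H1299 siCTR, a limma difference of -2.02 ± 0.20 (SE, n = 2 per line, adjusted p = 0.00111). LDHB, the form of heart and other oxidative tissue, had 767 TPM in HCC827 siCDH3 and 762 in HCC827 siCTR, against 723 in H1299 siCDH3 and 666 in H1299 siCTR. Its difference of 0.14 ± 0.15 (SE, n = 2 per line) did not pass (limma adjusted p = 0.456), but passed when only nuclear protein-coding genes made up the total, at 0.55 (adjusted p = 0.0357). Of the kinases that switch off pyruvate dehydrogenase, PDK1 differed by -1.43, and PDK3, at 0.15 ± 0.23 (SE, n = 2 per line), did not pass (limma adjusted p = 0.605).

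**Figure D2:**
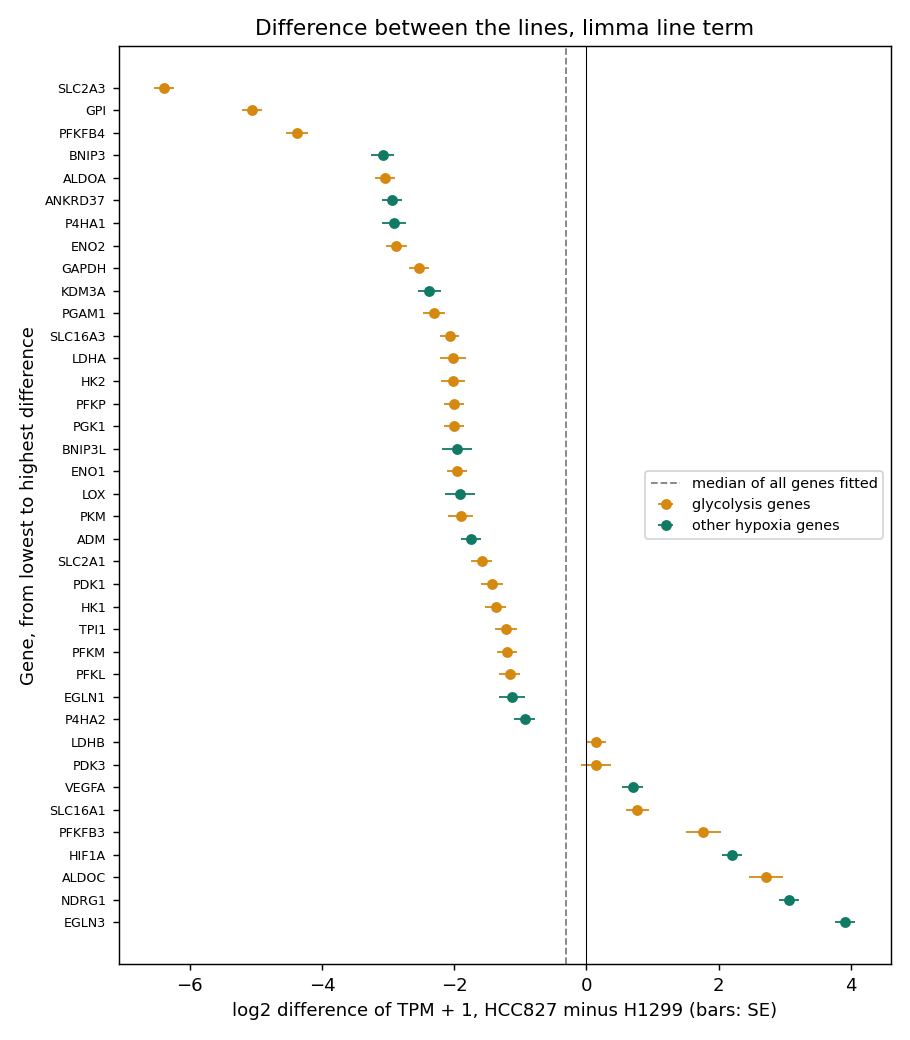
Line term of limma, HCC827 minus H1299, on the log2(TPM + 1) scale (x) for the 38 members fitted, sorted from lowest to highest (y), with SE as bars. Orange marks glycolysis genes, green the other hypoxia genes, and the dashed line the median of all genes fitted (-0.31). Of the members, 29 lie below 0 and past the threshold, down to -6.39 for SLC2A3, and EGLN3 is highest at 3.92.

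Among the other hypoxia genes, 13 of 15 were fitted, of which 9 (69.2%) were lower in HCC827 and 4 (30.8%) higher, against the 41.3% and 21.5% of all genes. Their median difference was -1.75. With the total taken over nuclear protein-coding genes it was -1.37. Summed over the 15 genes, TPM was 748 in HCC827 siCDH3 and 749 in HCC827 siCTR, against 1300 in H1299 siCDH3 and 1545 in H1299 siCTR.

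The genes of oxygen sensing, HIF1A and its hydroxylases, were not all lower in HCC827. HIF1A had 242 TPM in HCC827 siCDH3 and 254 in HCC827 siCTR, against 49.2 in H1299 siCDH3 and 56.7 in H1299 siCTR. Its difference was 2.21 ± 0.15 (SE, n = 2 per line, limma adjusted p = 0.000366). HIF1A is controlled mainly through the stability of its protein, which was not measured. EGLN3, a hydroxylase gene that hypoxia itself induces, had 15.3 TPM in HCC827 siCDH3 and 14.6 in HCC827 siCTR, against 0.109 in H1299 siCDH3, and was listed at 0 in H1299 siCTR. EGLN1, the main HIF hydroxylase, had 10.3 TPM in HCC827 siCDH3 and 9.78 in HCC827 siCTR, against 19.1 in H1299 siCDH3 and 27.8 in H1299 siCTR, a difference of -1.12 ± 0.20 (SE, n = 2 per line, limma adjusted p = 0.00772).

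Genes known as targets of hypoxia-inducible factor lay on both sides. The carbonic anhydrase genes that regulate pH outside the cell were low in every library. CA9 was listed at 0 in HCC827 with either siRNA, against 1.23 TPM in H1299 siCDH3 and 0.601 in H1299 siCTR. CA12 had 0.432 TPM in HCC827 siCDH3 and 0.381 in HCC827 siCTR, while both H1299 libraries listed it at 0. Neither reached the 5 TPM needed to be fitted.

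Mitophagy receptors and collagen-modifying enzymes were lower in HCC827. BNIP3, a receptor that directs mitochondria to autophagy, had 62.9 TPM in HCC827 siCDH3 and 60.1 in HCC827 siCTR, against 465 in H1299 siCDH3 and 600.3 in H1299 siCTR, a limma difference of -3.08 ± 0.18 (SE, n = 2 per line, adjusted p = 0.000226). Its relative BNIP3L differed by -1.96. The collagen prolyl hydroxylase genes P4HA1 and P4HA2 differed by -2.91 and -0.93, and the collagen cross-linking oxidase gene LOX, which stayed under 10 TPM throughout, by -1.91. ANKRD37, an ankyrin repeat gene, differed by -2.94, the histone demethylase gene KDM3A by -2.37 and the peptide hormone gene ADM by -1.75.

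Among the members higher in HCC827 were 2 genes that are widely used as hypoxia markers. NDRG1, a stress-responsive gene linked to differentiation, had 116 TPM in HCC827 siCDH3 and 107 in HCC827 siCTR, against 12.3 in H1299 siCDH3 and 12.4 in H1299 siCTR. Its difference was 3.07 ± 0.15 (SE, n = 2 per line, limma adjusted p = 0.000156). VEGFA, the main angiogenic growth factor, had 162 TPM in HCC827 siCDH3 and 153 in HCC827 siCTR, against 93.3 in H1299 siCDH3 and 100.1 in H1299 siCTR, a difference of 0.70 ± 0.16 (SE, n = 2 per line, limma adjusted p = 0.0150).

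The question of the series, what silencing of CDH3 does in each line, was then asked of the same genes. Within a line the measure was the log2 ratio of TPM + 1, siCDH3 over siCTR, for genes that reached 5 TPM in siCDH3 or siCTR of that line. Adding 1 makes ratios of low genes smaller than they are. With 1 library a group there is no test and no replicate check, so sizes are given as a description. A gene was counted when its ratio reached 2-fold in either direction (a log2 ratio of 1 or -1).

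In HCC827, where CDH3 was abundant before silencing, 35 members were measured and 1 passed 2-fold, BNIP3L, against 1.84% of the 11043 genes measured in this line (0.833% lower and 1.01% higher). BNIP3L, the mitophagy receptor also called NIX, had 19.7 TPM in HCC827 siCDH3 and 44.3 in HCC827 siCTR, so that siCDH3 cells held 44.4% of the control level. Its log2 ratio was -1.13, lower than all but 0.59% of genes measured. With a pseudocount of 5 it was -0.998, just short of 2-fold. BNIP3, the other receptor, had a log2 ratio of 0.07.

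The glycolysis genes of HCC827 stayed close to their control level. Of 24 measured, 17 had a ratio above 0 and 7 below, and 13 lay above the median of all genes. Their median log2 ratio was 0.07, against 0.03 for all genes, of which 57.1% were above 0. The lowest was PDK1, at 11.99 TPM in siCDH3 and 19.0 in siCTR, a log2 ratio of -0.62. It was the only glycolysis gene past 1.5-fold, where 2.54% of all genes were lower and 3.35% higher. PDK3 lay on the other side, with 13.3 TPM in siCDH3 and 10.5 in siCTR, a log2 ratio of 0.32.

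The glycolysis genes with the highest ratios in HCC827 included forms of aldolase, enolase, phosphofructokinase and hexokinase. ALDOC had 21.9 TPM in siCDH3 and 14.7 in siCTR (log2 ratio 0.54), and ENO2 had 37.5 in siCDH3 and 27.6 in siCTR (0.43). PFKL had 65.3 TPM in siCDH3 and 52.6 in siCTR (0.31), and HK2 had 21.3 in siCDH3 and 18.1 in siCTR (0.22). PFKM, another phosphofructokinase subunit, lay below 0, at -0.13. Log2 ratios were 0.09 for ALDOA, 0.02 for ENO1, 0.10 for PKM, -0.06 for LDHA and 0.01 for LDHB. GAPDH in siCDH3 was at 99.7% of its siCTR level. The transporters SLC2A1, SLC16A1 and SLC16A3 had log2 ratios between -0.00 and 0.05.

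Of the other hypoxia genes of HCC827, 11 were measured, with a median log2 ratio of 0.07. Above 0 were 8, led by KDM3A (0.26) and P4HA1 (0.24), and below 0 were HIF1A (-0.07), ADM (-0.13) and BNIP3L. VEGFA had a log2 ratio of 0.08 and NDRG1 of 0.12.

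In H1299, 36 members were measured and 0 passed 2-fold, against 2.46% of the 11622 genes measured (1.58% lower and 0.878% higher). Of the members, 28 had a ratio below 0 and 8 above. All genes of this line leaned the same way, with 64.8% below 0 and a median of -0.11. The median of the 24 glycolysis genes was -0.14, with 13 genes below the median of all genes and 11 above. For the 12 other hypoxia genes the median was -0.16, with 7 below and 5 above the median of all genes. By these medians and counts the members lay near the rest of the genes. Transcript length and GC content together accounted for 0.244% of the variance of HCC827 ratios and 9.89% of that of H1299 ratios. With that trend removed the glycolysis median in H1299 was -0.19, against -0.11 for all genes. The split was then less even, with 17 glycolysis genes below the median of all genes and 7 above.

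The glycolysis genes with the lowest ratios in H1299 were PFKFB3 and LDHA. PFKFB3, the regulator with the strongest kinase activity of its family, had 6.38 TPM in siCDH3 and 13.5 in siCTR. Its log2 ratio was -0.98, lower than all but 1.72% of genes. It passed 2-fold with a pseudocount of 0.1 (-1.07) and with the length and GC trend removed (-1.08). It was closer to 0 with a pseudocount of 5 (-0.70), with quantile normalization (-0.86) and with the median of all genes set to 0 (-0.87). PFKFB4, the far more abundant form in this line, had a log2 ratio of -0.12.

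LDHA had 1084 TPM in H1299 siCDH3 and 1683 in H1299 siCTR, so that siCDH3 cells held 64.4% of the control level. Its log2 ratio was -0.63, lower than all but 5.73% of genes, and lay between -0.63 and -0.53 under all alternatives tried. LDHB was at 723 TPM in siCDH3 and 666 in siCTR (0.12). PKM, which makes the pyruvate that LDHA uses, had 1891 TPM in siCDH3 and 2444 in siCTR (-0.37). PFKFB3 and LDHA were the only members of H1299 past 1.5-fold, 2 of 36 measured, where 7.11% of all genes were lower and 3.21% higher. That count lay near the share of all genes and is not read as a trait of the members.

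**Figure D3:**
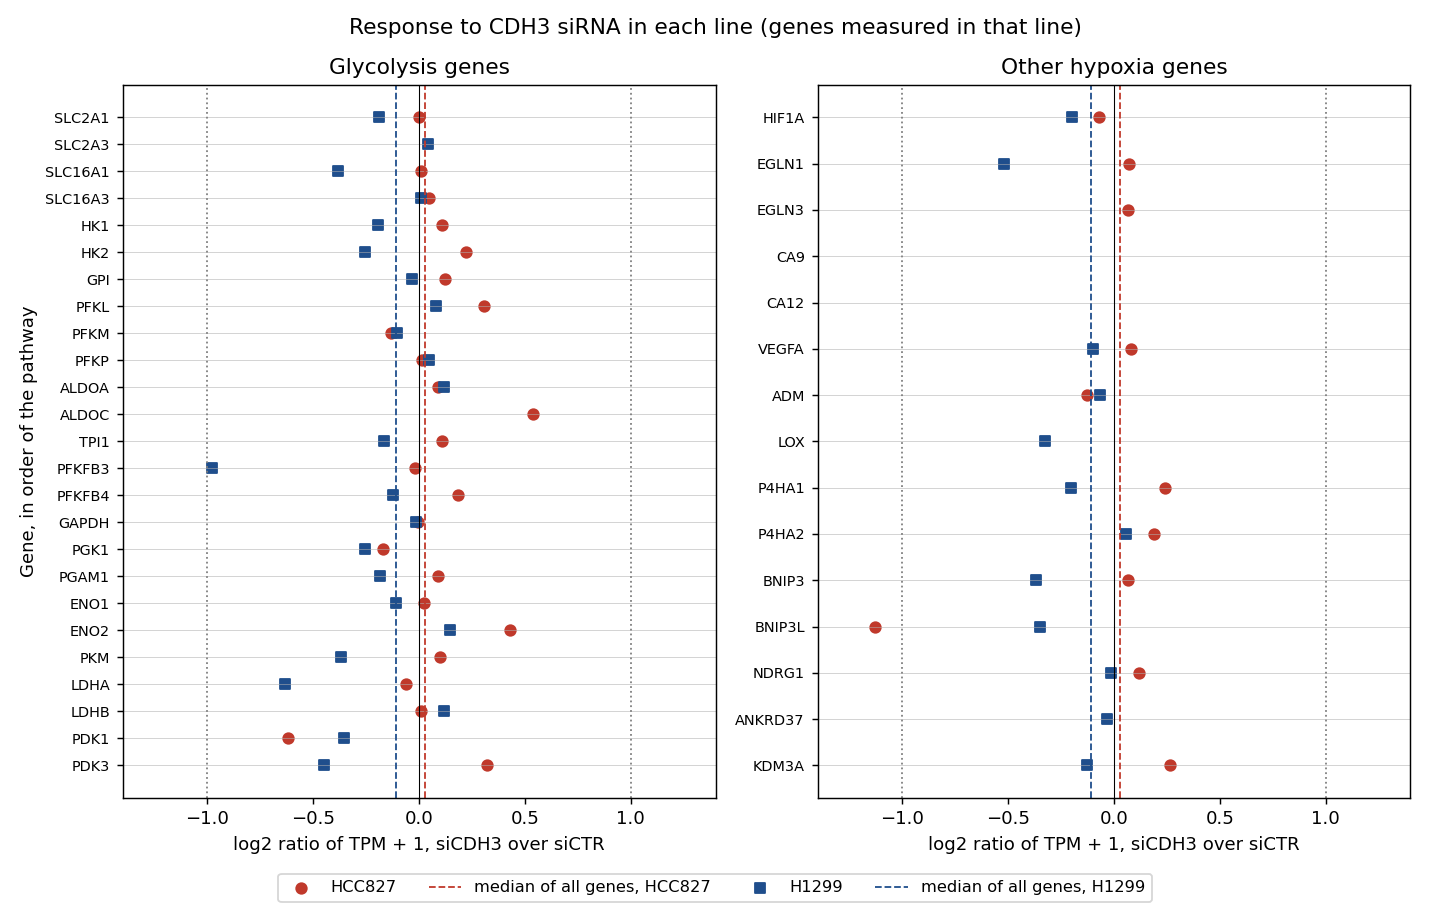
Log2 ratio of TPM + 1, siCDH3 over siCTR (x), for glycolysis genes (left) and other hypoxia genes (right), one row a gene, with red circles for HCC827 and blue squares for H1299, where the gene was measured in that line. Dotted lines mark 2-fold and dashed lines the median of all genes in each line (0.03 in HCC827, -0.11 in H1299). BNIP3L in HCC827, at -1.13, is the only point past 2-fold, and PFKFB3 in H1299, at -0.98, lies just inside.

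The remaining glycolysis genes of H1299 lay between -0.45 and 0.14. Both pyruvate dehydrogenase kinase genes of the list were below the median of all genes. PDK3 had 8.90 TPM in siCDH3 and 12.5 in siCTR (-0.45), and PDK1 had 37.3 in siCDH3 and 48.0 in siCTR (-0.35). PDK2, a kinase gene outside the list that is named after its values were seen, had 71.6 TPM in siCDH3 and 61.5 in siCTR (0.22). SLC16A1 had 39.9 TPM in siCDH3 and 52.4 in siCTR (-0.38). ENO2 (0.14), LDHB (0.12) and ALDOA (0.12) were highest. GAPDH, SLC16A3 and SLC2A3 had log2 ratios of -0.01, 0.01 and 0.04.

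The other hypoxia genes of H1299 were lowest for EGLN1, with 19.1 TPM in siCDH3 and 27.8 in siCTR (-0.52). Then came BNIP3, with 465 TPM in siCDH3 and 600.3 in siCTR (-0.37), BNIP3L with 104 in siCDH3 and 133 in siCTR (-0.35) and LOX with 7.39 in siCDH3 and 9.52 in siCTR (-0.33). P4HA2 alone was above 0, at 0.06. VEGFA (-0.10), ADM (-0.07), NDRG1 (-0.01) and ANKRD37 (-0.03) were at or above the median of all genes. HIF1A had 49.2 TPM in siCDH3 and 56.7 in siCTR (-0.20).

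Both lines measured 33 of the members. Of these, 10 were below 0 in both lines, 7 above 0 in both, 16 above 0 in HCC827 and below 0 in H1299, and 0 the other way round, while the median of all genes was itself above 0 in HCC827 and below 0 in H1299. Over all genes measured in each line, 57.1% were above 0 in HCC827 and 64.8% below 0 in H1299. The share of all genes in each of these classes was not counted, so the split is not read as a trait of the members. The siRNA term of limma, with the line as a block (2 lines, the pairing given by the labels), called 0 of 38 members at an adjusted p under 0.05. At an unadjusted p under 0.05 there were 2, BNIP3L and PDK1, and 581 of all 12941 genes. Over all genes 0.00773% were called. BNIP3L differed by -0.74 ± 0.23 (SE, n = 2 lines, limma unadjusted p = 0.0272, adjusted p = 0.950), with log2 ratios of -1.13 in HCC827 and -0.35 in H1299. PDK1 differed by -0.49 ± 0.16 (SE, n = 2 lines, limma unadjusted p = 0.0323, adjusted p = 0.950), with log2 ratios of -0.62 in HCC827 and -0.35 in H1299. Both genes were picked by the p-value of this term, so lower values in both lines are no separate support. LDHA, at -0.35 ± 0.20 (SE, n = 2 lines, limma adjusted p = 0.950), and PFKFB3, at -0.50 ± 0.27 (adjusted p = 0.950), were lower mainly in H1299.

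Within gene families the balance of forms differed between lines and, for some, with siCDH3. LDHA made up 29.8% of LDHA and LDHB together in HCC827 siCDH3 and 30.8% in HCC827 siCTR, against 60.0% in H1299 siCDH3 and 71.6% in H1299 siCTR. SLC2A3 made up 4.68% of SLC2A1 and SLC2A3 in HCC827 siCDH3 and 5.01% in HCC827 siCTR, against 68.3% in H1299 siCDH3 and 64.7% in H1299 siCTR. PFKFB4 made up 14.0% of PFKFB3 and PFKFB4 in HCC827 siCDH3 and 12.1% in HCC827 siCTR, against 95.0% in H1299 siCDH3 and 90.8% in H1299 siCTR. In these 3 families the lines lay further apart than the libraries of a line.

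For PDK1 and PDK3, the pyruvate dehydrogenase kinase genes of the list, the libraries of HCC827 also lay apart: PDK1 made up 47.4% of this pair in siCDH3 and 64.4% in siCTR. In H1299 it was 80.8% in siCDH3 and 79.3% in siCTR, leaving out PDK2, which had more TPM than either gene in both H1299 libraries. BNIP3 made up 76.2% of BNIP3 and BNIP3L in HCC827 siCDH3 and 57.6% in HCC827 siCTR, against 81.7% in H1299 siCDH3 and 81.8% in H1299 siCTR. Shares within a family do not depend on the scaling of the library, but each rests on 1 library.

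**Figure D4:**
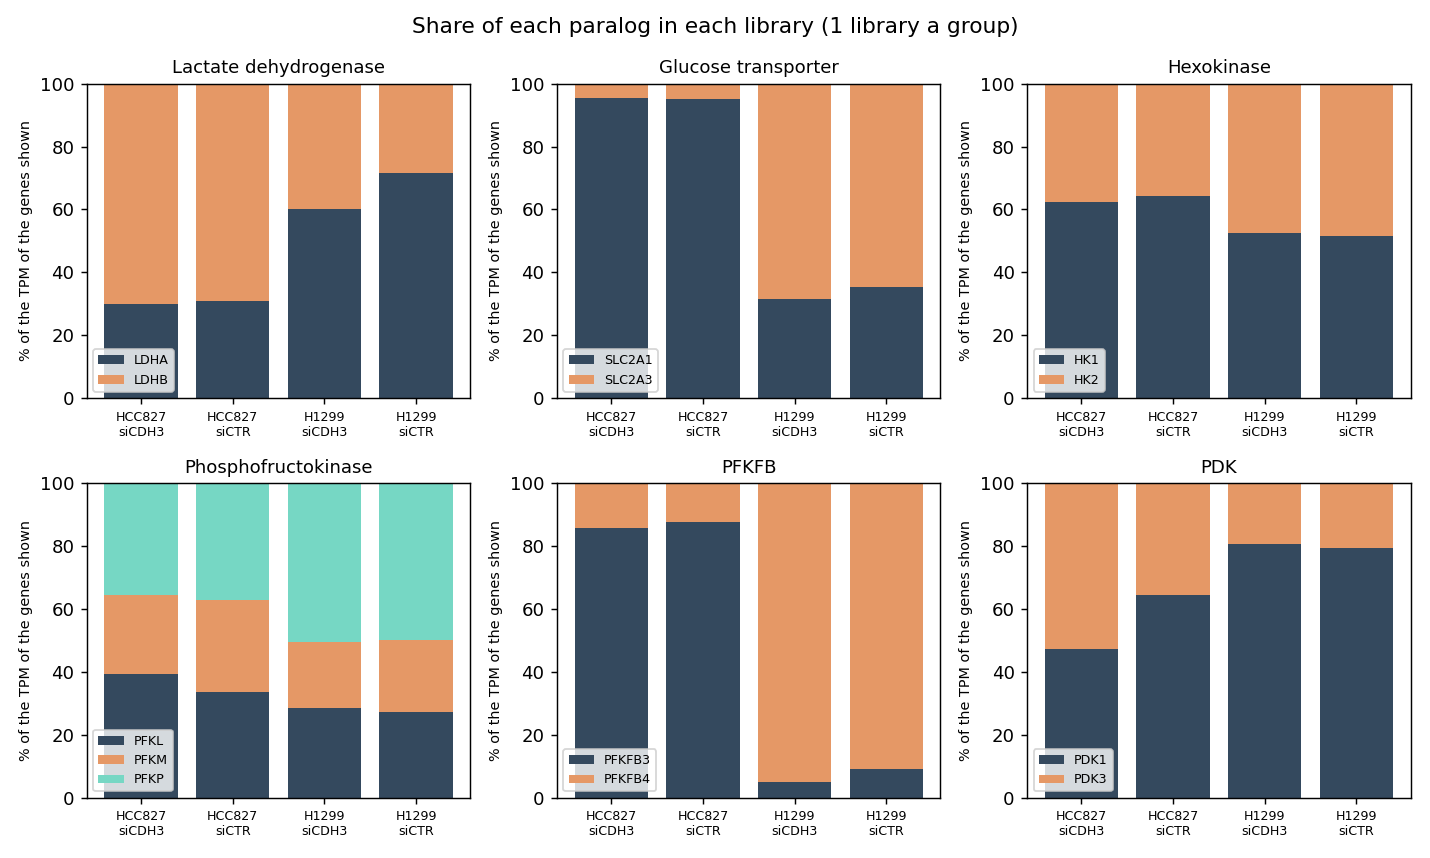
Percent of the summed TPM of the genes named in each panel (y) by library (x, HCC827 siCDH3, HCC827 siCTR, H1299 siCDH3, H1299 siCTR), for lactate dehydrogenase, glucose transporters, hexokinases, phosphofructokinases, the PFKFB regulators and the pyruvate dehydrogenase kinases PDK1 and PDK3. LDHA takes 29.8% and 30.8% of its pair in HCC827 siCDH3 and siCTR, against 60.0% and 71.6% in H1299 siCDH3 and siCTR, and PDK1 takes 47.4% of its pair in HCC827 siCDH3, against 64.4% in HCC827 siCTR.

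Other genes of these pathways, taken from lists that do not overlap the 40, were read beside them. Of 20 other genes of glycolysis and lactate handling, 7 were measured in HCC827 (median log2 ratio 0.16) and 8 in H1299 (0.10), and 0 passed 2-fold in either line. The muscle enolase gene ENO3 had 9.25 TPM in HCC827 siCDH3 and 5.32 in HCC827 siCTR (0.70), and ADPGK, a glucokinase that uses ADP, was above 0 in both lines (0.47 in HCC827, 0.37 in H1299). Of 20 genes of the pentose phosphate, glycogen, hexosamine and serine branches, all were measured in both lines, and RPE, the ribulose phosphate epimerase gene, passed 2-fold, with 11.1 TPM in H1299 siCDH3 and 42.3 in H1299 siCTR (-1.84). Of 11 genes of pyruvate dehydrogenase and its control, PDP2, a phosphatase that reactivates the enzyme, passed 2-fold, with 5.57 TPM in H1299 siCDH3 and 16.4 in H1299 siCTR (-1.404). Over all genes measured in H1299, 1.58% were lower past 2-fold. The H1299 medians were -0.18 for the glucose branches and -0.14 for pyruvate dehydrogenase, against -0.11 for all genes. Gluconeogenesis genes, 6 in the list, had 4 measured in HCC827 and 3 in H1299, none past 2-fold.

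Of 14 HIF pathway regulators, 12 were measured in HCC827 (median 0.13) and 11 in H1299 (-0.07), and 0 passed 2-fold. VHL, which recruits hydroxylated HIF1A for degradation, had a log2 ratio of 0.26 in HCC827 and -0.63 in H1299. Of 24 other hypoxia targets, 19 were measured in HCC827 (median 0.00) and 24 in H1299 (-0.19), and 1 passed 2-fold, HILPDA, a lipid droplet gene, with 41.0 TPM in H1299 siCDH3 and 85.4 in H1299 siCTR (-1.04). Again, 1.58% of all genes measured in H1299 were lower past 2-fold. HILPDA was also below 0 in HCC827, at 16.2 TPM in siCDH3 and 22.1 in siCTR (-0.43). The siRNA term of limma, which could hardly call a response of 1 line only, called 0 genes of these lists.

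Between the lines, counts are to be read against the 41.3% of all genes lower in HCC827 and the 21.5% higher. In limma's line term 16 of the 24 other hypoxia targets were lower in HCC827 and 3 higher (median -1.07), and 5 of 10 other glycolysis and lactate genes fitted were lower and 3 higher (-0.75). Of the 20 genes of the glucose branches 5 were lower and 8 higher (0.41). Of the 12 HIF pathway regulators fitted 6 were lower and 3 higher. EPAS1, which encodes the HIF1A relative HIF-2 alpha and is named after its values were seen, was among those higher, with a limma difference of 3.07 ± 0.15 (SE, n = 2 per line, adjusted p = 0.000149).

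Many glycolysis genes have processed pseudogenes or close relatives that can share reads. Copies named after GAPDH, 62 in the table, summed to at most 17.5 TPM in any library. Copies of LDHA summed to 4.70 TPM in HCC827 siCDH3 and 5.48 in HCC827 siCTR, against 18.0 in H1299 siCDH3 and 23.2 in H1299 siCTR, between 1.36% and 1.64% of the total with LDHA itself. For BNIP3, 38 copies made up 7.62% of the total in HCC827 siCDH3 and 5.89% in HCC827 siCTR, against 1.33% in H1299 siCDH3 and 0.944% in H1299 siCTR. The near-identical SLC2A14 and pseudogenes of SLC2A3 together had 10.2 TPM in H1299 siCDH3 and 8.55 in H1299 siCTR. How reads shared by such copies were assigned is not given in the sources used here, and strand use is not given either, so values of GAPDH, SLC16A3, BNIP3L and other genes with an expressed neighbour on the opposite strand are uncertain to that degree. The antisense gene at GAPDH, AC006064.4, had 86.6 TPM in HCC827 siCDH3 and 68.1 in HCC827 siCTR, against 288 in H1299 siCDH3 and 294 in H1299 siCTR. EGLN3 overlaps SPTSSA on its own strand, which had 245 TPM in HCC827 siCDH3 and 216 in HCC827 siCTR, against 23.0 in H1299 siCDH3 and 35.9 in H1299 siCTR. Its part in the EGLN3 values was not tested.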

How the data were processed

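RNA was sequenced from 4 libraries, 1 per group, 48 h after transfection. The table deposited by the authors gives TPM for 58174 genes, with 1 column per library. The submitters' processing notes name the build hg19. The aligner, the counting tool and strandedness: not given in the sources used here. Depth is unknown. Gene types, transcript length and GC content came from GENCODE release 29 (99.4% of identifiers matched), and promoter sequences from RefSeq on GRCh38.p14, and no coordinates were joined between builds. 

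Log2 ratios of TPM + 1 were taken within each line for genes with at least 5 TPM in 1 of its 2 libraries, and sizes were counted at 2-fold. For tests, genes with at least 5 TPM in 1 of 4 libraries entered limma 3.58.1 (R 4.3.3) as log2(TPM + 1), with line and siRNA as terms, and p-values were adjusted by Benjamini-Hochberg over all genes fitted. The pairing of libraries is by cell line, from the labels. The scripts were tested on simulated data. Alternatives were other pseudocounts, filters, scalings, size rules, means, a length and GC trend, and limma with a trend, with 1 term and without each library.

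Members and lists were chosen with earlier results of these data known. All members are named, and of each other list the 3 measured genes with the largest ratios in each line could be named. Other names are said to have been chosen after their values were seen.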

Additional observations from a re-analysis of the deposited data

Results flagged for a closer look

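Of the 33 members measured in both lines, 2 had ratios on opposite sides of 0, also relative to the median of all genes in each line, and differed between the lines by at least 0.5 (log2), a size chosen after the data were examined. PDK3 had a log2 ratio of 0.32 in HCC827 and -0.45 in H1299, a difference of 0.77 (HCC827 minus H1299). EGLN1 had 0.07 in HCC827 and -0.52 in H1299, a difference of 0.59. Under the alternatives its ratio lay between 0.04 and 0.08 in HCC827 and between -0.54 and -0.31 in H1299. The difference for EGLN1 thus did not always reach 0.5. With 1 library per group the difference between the lines was not tested for either gene.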

How the results depend on the processing

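In H1299 the count of members past 2-fold was 0, and it was 1 (PFKFB3) with a pseudocount of 0.1 and with the length and GC trend removed, and 2 at 1.5-fold. In HCC827 it was 1 (BNIP3L), 0 with a pseudocount of 5, 2 (BNIP3L and PDK1) at 1.5-fold and 0 at 4-fold. List medians moved by 0.1 or less except where the median of all genes in H1299 was set to 0, which gave -0.037 for glycolysis and -0.057 for other hypoxia genes. The mean of the hypoxia genes in HCC827 was -0.02, opposite in sign to their median of 0.07, with BNIP3L far below the rest. Of 629 ratios of single members under alternatives, 560 stayed within 0.1. Limma called 36 of 38 members between the lines, where 62.9% of all genes were called. Under the alternatives with all 4 libraries it called 34 to 37 members, of 35 to 40 fitted. With 1 library left out, fewer members and fewer of all genes were called, fewest without an HCC827 library. Between siCDH3 and siCTR, where a response of 1 line only could hardly be called, it called 0 members in the main fit and under the alternatives with all 4 libraries. Without the replicate block (siRNA as the only term) the count was 0, so that the block changed no call of a member. With 3 libraries only 1 term could be fitted, and the arm left with 1 library is assumed to vary like the other. Depth is unknown, so precision at low TPM, as for CA9, CA12 and LOX, cannot be given.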
